A study of Mus musculus with 78 samples.

Results

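Photoreceptors and rod bipolar cells are the first and the next neuron on the path that carries dim light through the mouse retina, and they were compared here on 9 arrays of the same batch. All arrays labelled batch 1 from these 3 sorted populations were used, 9 of the 78 arrays of the series, and all 19446 probe sets with 1 gene symbol (19301 genes) were read on them. The rods came from b2-Cre × Rosa26-LSL-RFP mice (set b2_1st, red fluorescent protein). The cones came from Tg(Chrnb4-EGFP)1Gsat mice (set Chrnb4, green fluorescent protein). The rod bipolar cells came from B6:FVB-Tg(Pcp2-EGFP)2Yuza mice (set Pcp2, green fluorescent protein). Each set held 3 biological replicates from adult animals whose background mixed C57BL/6J with an FVB/N-Swiss Webster hybrid, with 200 sorted cells per sample after a papain dissociation of 15 min. Per the labels' protocols, some lines carried a recessive mutation that makes photoreceptors degenerate, and were bred away from it; its part in any result was not tested. Rod bipolar cells come from 1 line only. The rods differ from the other sets in reporter colour too, so colour and the rod set cannot be told apart. In bulk samples, fewer cells of a type and less RNA per cell cannot be told apart. As a second measurement with no array in common, batch 2 offers rods (sets b2_2nd and b2_single, the b2 cross again, 6 arrays) and ON bipolar cells (set mGluR6, 3 arrays), for which Rosa26-LSL-RFP mice were crossed with B6Cf1-Tg(mGlur6-Cre)BR.

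Rods and cones turn light into a fall of cyclic GMP. An opsin activates the G protein transducin, transducin switches on a phosphodiesterase, and cyclic nucleotide-gated channels of the outer segment close. Glutamate release from the photoreceptor's ribbon synapse then drops. The rod bipolar dendrite reads that drop through the receptor mGluR6, coded by Grm6, whose G protein Go holds the channel TRPM1 shut in the dark; the cell also receives GABA from amacrine cells on its axon terminal. Photoreceptors and bipolar cells are sister neurons that share the homeodomain factors OTX2 and CRX.

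The markers matched the labels. Recoverin (Rcvrn), a calcium sensor of photoreceptors, had intensities of 1461, 1218 and 1277 in the rods and 1640, 1731 and 1640 in the cones, against 0.181, 0.302 and 11.9 in the rod bipolar arrays. Crx had 51.5, 61 and 139 in the rods and 55.1, 88.3 and 131 in the cones, against 34.4, 28.1 and 37.9 in the rod bipolar cells. The photoreceptor arrays lay above the rod bipolar arrays for both genes, but the Crx difference of 1.28 ± 0.42 (SE, log2) missed the threshold (limma adjusted p = 0.19). Pcp2, the gene whose promoter drives the bipolar reporter, had 36.8, 23.7 and 26.2 in the rods and 12.8, 61.5 and 14 in the cones, against 1116, 1218 and 1300 in the Pcp2 arrays. Prkca, the protein kinase by which rod bipolar cells are recognised, had 7.83, 6.43 and 4.63 in the rods and 4.76, 5.72 and 5.17 in the cones, against 37.1, 31.5 and 21 in the rod bipolar cells. The other driver gene, Chrnb4, stood at 22.4, 21.6 and 29.7 in the cones that carry its transgene and at 8.4 to 12.2 in the rods, against 8.76 to 11.1 in the rod bipolar cells.

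Of markers of other retinal cells, the comparison of all photoreceptors with rod bipolar cells called 0 of 5 tested horizontal, 9 amacrine, 9 ganglion, 10 Müller, 5 microglial and 7 pigment epithelial cell markers (limma). Over all probe sets tested 2.98% were called, so a count of 0 in lists of this size is near the background. Of 3 tested vessel markers 1 was higher (Vtn), and of 11 tested cone bipolar markers 2 were lower (Scgn and Igfn1); these are described with their values further on. The summed intensity of the 13 amacrine markers was 227 to 501 on photoreceptor arrays and 187 to 220 on rod bipolar arrays, with no overlap, and its part in other results was not tested. The summed intensity of the 12 microglial markers was 112 to 147 on photoreceptor arrays and 110 to 149 on rod bipolar arrays. That of the 15 Müller cell markers was 474 to 769 in rods and 768 to 1045 in cones, against 378 to 524 in rod bipolar cells. The cones did not overlap with the rod bipolar cells, and 1 of the 10 tested markers was called higher in cones. The part of Müller cell RNA in other results was not tested. Of 16 tested stress and immediate early genes, Ier3 was higher in photoreceptors (1.59 ± 0.3), and Dusp1 (-1.09 ± 0.2) and Gadd45b (-3.38 ± 0.39, a bound) were lower. Ier3 was not called without any 1 of the Pcp2 arrays (1.48 to 1.66), and Dusp1 not without Pcp2 replicate 2 or 3 (-1.11 and -0.96) or b2_1st replicate 2 (-1.06). The part of dissociation in other results was not tested. The 10 measured rod cascade genes summed to 8606 to 9873 in rods and 3186 to 3530 in cones, against 172 to 247 in rod bipolar cells. Most of the cone sum was 1 gene, arrestin (Sag), at 2583, 2152 and 2744, while Gnb1 and Pde6b lay at the floor on all 3 cone arrays. Rhodopsin itself is not analysed here. Single rod genes were uneven on the bipolar arrays: Sag had 57.1, 7.63 and 2.24 on Pcp2 replicates 1, 2 and 3. They were uneven in cones too, where Gnat1 had 332, 0.217 and 227 and Pde6b lay between 0.686 and 1.55. The part of rod RNA on the cone and rod bipolar arrays was not tested. The Chrnb4 arrays correlated with each other at a median r of 0.864 across probe sets, b2_1st arrays at 0.885 and Pcp2 arrays at 0.942.

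Photoreceptors, taken as the mean of the rod and cone set means, were set against rod bipolar cells with limma on log2 intensities. Values at or below 3.99 were raised to that floor. It is the highest intensity, on any of the 78 arrays, up to which the lowest values stood in identifier order. On other arrays such runs ended lower or were not found. A difference written as "at least" has an array of the lower group at the floor. Such a bound assumes that nothing was subtracted from the signal before deposit. Calls needed a log2 difference of at least 1 and a Benjamini-Hochberg adjusted p under 0.05. Of 11774 probe sets tested, 351 (2.98%) were called, of which 119 (1.01%) were higher in photoreceptors and 232 (1.97%) were lower. The 6 photoreceptor arrays all lay above the 3 rod bipolar arrays for 336 probe sets (2.85%) and all below for 487 (4.14%). Both conditions held for 84 higher and 203 lower probe sets. The other 35 higher and 29 lower calls had overlapping arrays. Rods and cones were themselves called different for 378 probe sets (3.21%), with 123 higher in rods (1.04%) and 255 lower (2.17%). These calls included 35 of the higher and 51 of the lower probe sets between photoreceptors and rod bipolar cells, so each line is also given by itself.

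Genes of the calcium feedback and shut-off of phototransduction were called higher for 3 of 9 tested members, Guca1a, Rcvrn and Pdc, and lower for 0. All probe sets tested gave 1.01% higher and 1.97% lower. Guca1a, the calcium sensor that switches guanylate cyclase on again, was higher by at least 9.05 ± 0.63 (limma adjusted p = 6.9e-05). Its intensities were 4171, 5320 and 5320 in rods and 5320, 4552 and 5320 in cones, against 40.2, 5.15 and 0.106 in rod bipolar cells. Rods and cones overlapped with each other near the highest value of the table, 5770, and Pcp2 replicate 1 was the highest of the bipolar arrays. Rcvrn, which holds back rhodopsin kinase, was higher by at least 8.01 ± 0.37. Sag, the arrestin that silences the activated opsin, had 1957, 2744 and 2744 in rods and 2583, 2152 and 2744 in cones, and its difference was at least 7.68 ± 0.7. Phosducin (Pdc), which binds the βγ subunits of transducin, was higher by 3.04 ± 0.37, with 1126, 1682 and 1061 in rods and 607, 723 and 376 in cones, against 98.7, 59.8 and 177 in rod bipolar cells. Pde6g, the inhibitory subunit of rod phosphodiesterase, was also at 241 to 430 in the cones, with 482 to 565 in the rods, against 0.256 to 22.8 in rod bipolar cells. Unc119, a carrier of transducin, missed only the fold, with a difference of 0.95 ± 0.1 (adjusted p = 0.00089) and intensities of 1112 to 1336 in the rod bipolar cells themselves. The regulator Rgs9 had a difference of 1.01 ± 0.48 and rhodopsin kinase, Grk1, one of 1.27 ± 0.54, neither called. The cyclase genes Gucy2e and Gucy2f were too dim to test.

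**Figure D1:**
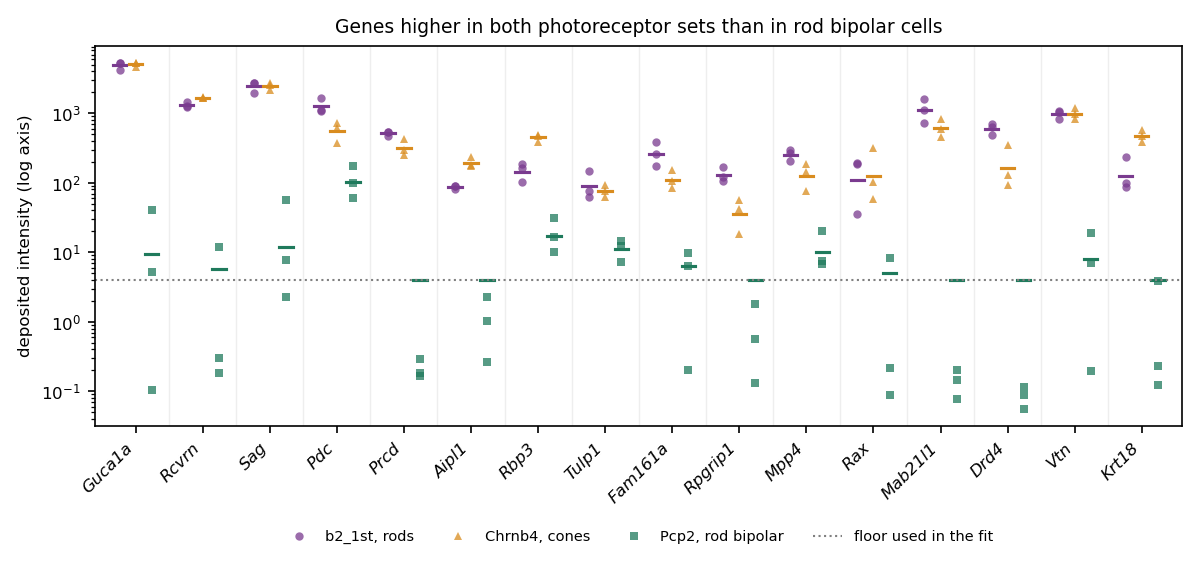
Deposited intensity on a log axis for 16 genes called higher in both photoreceptor sets. Points are single arrays of b2_1st (rods), Chrnb4 (cones) and Pcp2 (rod bipolar), bars are geometric means with values raised to the floor, and the dotted line is the floor of 3.99; Guca1a, Rcvrn and Sag lie above 1000 on all 6 photoreceptor arrays.

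Among the genes of the outer segment, 10 of 18 tested were higher and 0 lower, against 1.01% and 1.97% of all probe sets tested. Their median difference was 1.7, against 0.02 over all probe sets tested. Prcd, a small disc protein, had 535, 541 and 465 in rods and 294, 420 and 251 in cones, and lay at the floor on all 3 rod bipolar arrays; it was higher by at least 6.65 ± 0.29. Aipl1, the chaperone of phosphodiesterase, was at 80.3 to 91.2 in rods and 173 to 238 in cones, against 0.265 to 2.27 in rod bipolar cells. Rbp3, the retinoid carrier of the space around the outer segments, was higher by 3.88 ± 0.4, and Tulp1, which helps move proteins into them, by 2.91 ± 0.38. The disc rim genes Prph2 and Rom1 were higher as well, by 2.45 ± 0.15 and 1.93 ± 0.16, yet they were far from absent in the bipolar cells. In the fit on all 78 arrays neither was called (limma adjusted p = 0.14 and 0.24). Prph2 was not called in that on 24 batch 1 arrays either (0.097). Prph2 had 1856, 1912 and 1927 in rods and 1077, 849 and 996 in cones, against 244, 215 and 292 in rod bipolar cells. Rom1 had 2296, 2896 and 2437 in rods and 1158, 943 and 1336 in cones, against 365, 476 and 501. Both stayed high in the other bipolar lines, where Rom1 averaged 828 in mGluR6, 686 in Kcng4 and 516 in Lhx4. Fscn2, an actin bundler, had 541, 587 and 992 in rods and 2.4, 131 and 169 in cones, against 0.155 to 0.277 in rod bipolar cells. Its average difference of 5.45 ± 1.05 was not called without any 1 of the Pcp2 arrays (adjusted p 0.1 to 0.11) or without b2_1st replicate 2 or 3 (0.052 and 0.056). Rp1, a microtubule protein of the axoneme, was called in rods alone, with 283, 263 and 303 there, 2.41 to 7.62 in cones and 0.265 to 0.628 in rod bipolar cells.

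The connecting cilium, the bridge through which every outer segment protein passes, was represented by 25 tested genes. Of these 5 were higher, 0 lower and 20 not called, with a median difference of 0.33. The shares over all probe sets tested were 1.01% higher and 1.97% lower. A gene not called is not shown to be equal. Bbs9 differed by 1.99 ± 0.49 with every photoreceptor array above the rod bipolar arrays (adjusted p = 0.073), and Ift20 by -1.5 ± 0.53 with every one below (adjusted p = 0.24). Bbs7 was called in rods (2.46) and not in cones (-1.79, a bound). Fam161a, a microtubule-binding protein of the cilium, had 255, 177 and 387 in rods and 153, 83 and 107 in cones, against 6.27, 9.71 and 0.205 in rod bipolar cells, at least 4.76 ± 0.41 higher. Rpgrip1, which anchors the ciliary GTPase regulator RPGR, was higher by at least 4.08 ± 0.36. The Bardet-Biedl protein gene Bbs5 was higher by 1.88 ± 0.3. The calls of Cep290 (at least 1.34 ± 0.26) and Pcdh15 (1.02 ± 0.23) lay close to the threshold. Cep290 was called under 12 of 18 alternatives and not without Pcp2 replicate 2 or 3 (1.24) or b2_1st replicate 2 or 3 (1.35 and 1.28). Pcdh15 was called under 3, and not without any 1 array other than Chrnb4 replicate 3 (0.87 to 1.15). Bbs5 was not called without Pcp2 replicate 1 or 3 (1.79 and 1.78). Arl3, a small GTPase of cilia, was not called, with 1108 to 1672 in rods and 1682 to 2152 in cones, against 1018 to 1386 in rod bipolar cells. In the visual cycle list, 1 of 10 tested genes was called, Abca4, the disc flippase that clears retinal, at 1.6 ± 0.25 (1.61 and 1.54, not called, without Pcp2 replicate 1 or 3). With 2.98% called over all probe sets, 1 call in 10 genes says little about the list. Rdh12, a retinol dehydrogenase, had 255, 214 and 156 in rods and 2.37, 1.3 and 95.4 in cones, against 0.155 to 0.394 in rod bipolar cells, and was called in rods alone.

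Several of the genes most raised over rod bipolar cells lie outside phototransduction. Mab21l1, a developmental gene of the eye, had 735, 1620 and 1116 in rods and 587, 462 and 827 in cones, and lay at the floor on every rod bipolar array, at least 7.68 ± 0.34 higher. Outside photoreceptors its highest mean was 1886, in the amacrine line Igfbp2; means of other sets are geometric, with the floor. Vtn, vitronectin, a matrix glycoprotein, stood on a list of vessel markers but had 821, 1057 and 1069 in rods and 973, 824 and 1173 in cones, against 6.91, 19 and 0.194 in rod bipolar cells. The vessel markers Pecam1, Cdh5, Kdr and Tek were too dim to test. Drd4, the dopamine receptor that lowers cyclic AMP in photoreceptors, was higher by at least 6.29 ± 0.43, with 492 to 690 in rods and 94.3 to 349 in cones. Krt18, an epithelial keratin, was at 87.7 to 233 in rods and 387 to 568 in cones, and its highest mean in any set outside photoreceptor and bipolar lines was 4.49. Pdzph1 and Glmn also lay at the floor on every rod bipolar array, with 47.2 to 216 and 70.7 to 288 on the photoreceptor arrays. Mpp4, a scaffold of the photoreceptor terminal, was higher by 4.13 ± 0.46, Rtbdn, a riboflavin-binding protein of the retina, by 3.94 ± 0.35, Ubtd1 by 3.9 ± 0.28, Jam2, a junctional adhesion molecule, by 3.98 ± 0.33, and A930003A15Rik by 3.87 ± 0.4. C1ql3, a secreted synaptic protein, was higher by 2.85 ± 0.46 (2.86 and 2.54, not called, without Pcp2 replicate 1 or 3). Grtp1 was called at 3.13 ± 0.61 but not without Pcp2 replicate 1 or 3 (3.22 and 2.62) or b2_1st replicate 1 or 3 (2.97 and 3.04). Cdc42ep3, at 2.95 ± 0.59, was called under 10 of 18 alternatives and ranged from 2.49 to 3.8. Its call was lost without Pcp2 replicate 2 or 3, Chrnb4 replicate 2 or 3, or b2_1st replicate 2 or 3. Dpysl3, at 2.88 ± 0.64, was called under 7 and lost without any 1 of the Pcp2 or b2_1st arrays or Chrnb4 replicate 1 (2.58 to 3.25). Not all of these genes were low in the sets outside photoreceptor and bipolar lines. The highest means there were 245 for Drd4, 79.6 for Jam2, 234 for Grtp1 and 128 for C1ql3. Rod and cone means were 596 and 163 for Drd4, 67 and 184 for Jam2, 274 and 219 for Grtp1, and 71.1 and 47.9 for C1ql3. For Mpp4, Rtbdn and Pdzph1 the highest means there were 6.47, 16.1 and 4.13.

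Rods and cones use separate copies of most cascade proteins, and here the average over both hides how each line stood against rod bipolar cells. In rods, 9 of 10 tested rod cascade genes were higher than in rod bipolar cells (4.21% of all probe sets tested were called, 1.21% higher and 3% lower). In cones 3 of 10 were higher (2.28% of all were called, 1.15% higher and 1.14% lower). The comparisons of rods and of cones share the 3 Pcp2 arrays. Gnat1, the rod transducin α subunit, had 2064, 2505 and 2394 in rods and 332, 0.217 and 227 in cones, against 0.0729, 5.56 and 0.0251 in rod bipolar cells. The average over both lines, 6.46 ± 1.21, was not called without any 1 of the Pcp2 arrays (6.39 to 6.62) or b2_1st replicate 2 (6.44), and the rod difference was at least 9.02. Gnb1, its β subunit, was at 1099 to 1260 in rods, 0.728 to 1.65 in cones and 0.0697 to 16.2 in rod bipolar cells. Pde6b, a catalytic subunit of rod phosphodiesterase, had 654, 793 and 577 in rods and lay at the floor on all cone and rod bipolar arrays, at least 7.39 higher in rods than in rod bipolar cells. The channel subunit Cnga1 had 796, 836 and 745 in rods and 1.45, 62 and 1.5 in cones, against 0.0636 to 0.168. Other rod genes had signal outside the rod set as well, and the part of rod RNA in that signal was not tested. Gngt1, the γ subunit, had 1121, 1005 and 1048 in rods and 327, 485 and 243 in cones, against 88.3, 137 and 95.7 in rod bipolar cells, and its means were 437 in the bipolar line Kcng4 and 361 in Lhx4, against 22.7 in mGluR6. The channel partner Cngb1 had 175, 163 and 188 in rods and 37.6, 42.5 and 12.3 in cones, against 42, 71 and 57.6 in rod bipolar cells, and was not called.

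On the cone side, 8 of 9 tested cone cascade genes were higher in cones than in rod bipolar cells and 0 lower. The opsins Opn1mw and Opn1sw had 2505 to 3382 and 2236 to 4171 in cones and lay at the floor on every rod and rod bipolar array. Cone arrestin, Arr3, had 1198, 1121 and 1108 in cones and was at the floor in rods and in rod bipolar cells, a difference of at least 8.16 between cones and rod bipolar cells. Pde6c, the cone phosphodiesterase, had 309, 234 and 231 in cones, and 1.38 to 1.86 in rod bipolar cells. Pde6h, its inhibitory subunit, was the only cone cascade gene called higher in rods too, with 25.8, 23 and 20.4 in rods and 4902, 4902 and 4552 in cones, against 0.0623 to 0.145. Gnat2, cone transducin α, was a gene of opposite directions. It had 0.0251, 0.0406 and 0.0406 in rods and 2437, 1672 and 2847 in cones, against 16.9, 34.1 and 32.4 in rod bipolar cells. Gnat2 thus differed from rod bipolar cells by -2.73 in rods, a bound, and by 6.41 in cones. The average of Gnat2 over both lines was 1.84 with the floor and -1.58 without it, so the values by line are given instead. With any 1 of the Pcp2 arrays left out the Gnat2 average was 1.52 to 2.02 and not called.

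**Figure D2:**
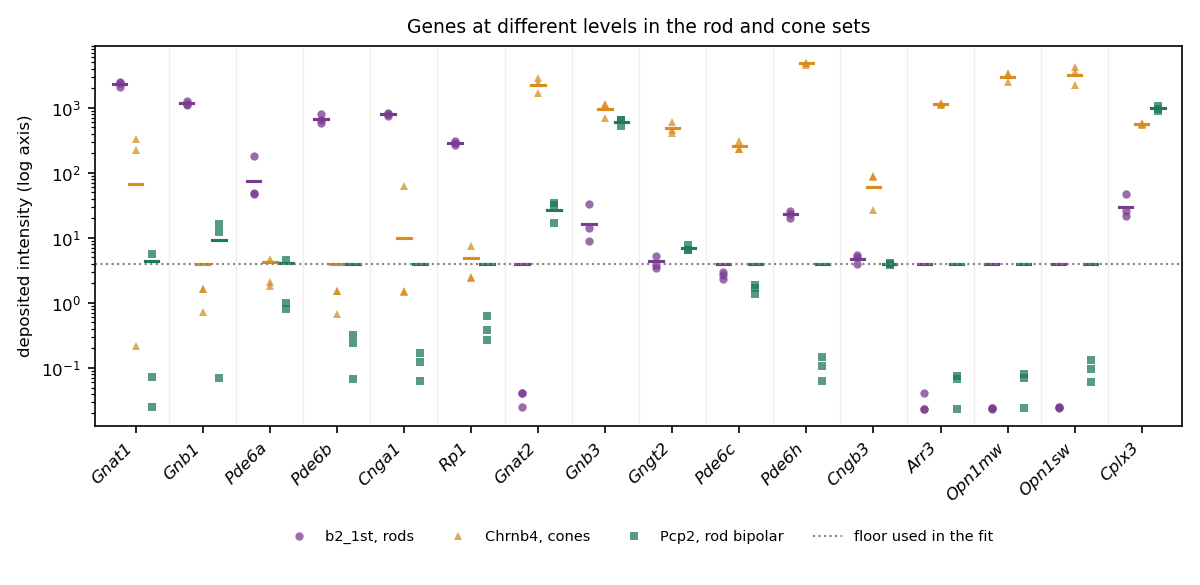
Deposited intensity on a log axis for 16 genes of the rod and cone cascades, outer segment and synapse. Points are single arrays of b2_1st (rods), Chrnb4 (cones) and Pcp2 (rod bipolar), bars are geometric means after the floor; Gnb3 and Cplx3 are high in cones and in rod bipolar cells and low in rods.

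Gnb3 and Cplx3 were high in cones and rod bipolar cells together. Gnb3, the β subunit that cone transducin and the ON bipolar G protein have in common, had 9.05, 32.9 and 14 in rods and 1104, 698 and 1126 in cones, against 526, 654 and 646 in rod bipolar cells. The difference from rod bipolar cells was -5.23 in rods, and 0.65 and not called in cones. The average of -2.29 was not called without any 1 of the Pcp2 arrays (-2.39 to -2.23). Cplx3, a complexin of ribbon synapses, had 25.4, 21.7 and 46.8 in rods and 540, 584 and 557 in cones, against 969, 1073 and 889 in rod bipolar cells (-2.92 ± 0.29). Its partner Cplx4 ran the other way, with 698, 695 and 937 in rods and 439, 302 and 263 in cones, against 89.1, 132 and 31, a difference of 2.81 ± 0.44. Elfn1, the adhesion protein by which the rod terminal meets mGluR6, was higher by 2.2 ± 0.34, with 64.6, 84.2 and 159 in rods and 58.2, 39.4 and 53.5 in cones, against 16.4, 13.5 and 15.2 in rod bipolar cells; without Pcp2 replicate 2 or 3 it was 2.12 and 2.21 and not called. Slc38a1, a glutamine transporter, had 4.56 to 7.37 in rods and 71.4 to 310 in cones, against 451 to 648 in rod bipolar cells, and was called in rods (-6.65) and not in cones (-1.54). Of 19 tested genes of the photoreceptor terminal, 2 were higher, 1 was lower and 16 were not called, with a median of 0.01. Across all probe sets tested, 1.01% were higher and 1.97% lower. Pclo and Bsn, scaffolds of the active zone, differed by 0.01 ± 0.28 and 0.05 ± 0.18, and Cacna1f, the calcium channel of ribbon synapses, by 0.78 ± 0.27.

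Of 13 tested genes of the ON pathway of the bipolar dendrite, 8 were lower in photoreceptors, 0 higher and 5 not called, with a median of -1.85. All probe sets tested gave 1.97% lower and 1.01% higher. By line, 8 were lower in rods and 5 in cones. One of the 8 in the average is Gnb3, which was not called in cones (0.65), as given above. Another is Pcp2, lower in both lines. Its promoter drives the reporter by which the rod bipolar cells were sorted, so its call follows from the sort. Among those not called, Lrit3 differed by 0.4 ± 0.24 and Ric8b by 0.22 ± 0.27. Gng13, the γ subunit of the ON bipolar G protein, had 8.97, 7.27 and 20.3 in rods and 45.7, 53.4 and 38 in cones, against 1233, 1260 and 1445 in rod bipolar cells. Its difference was the largest among lower genes measured on all 9 arrays (-5.88 ± 0.38, limma adjusted p = 4.2e-05). Gnao1, the α subunit of Go, differed by -3.42 ± 0.5, with 40 to 200 on the photoreceptor arrays, against 784 to 809 in rod bipolar cells. Trpm1, the channel that opens in light, had 6.59, 6.11 and 6.95 in rods and 7.44, 7.47 and 7.56 in cones, against 81.6, 69 and 61.8. The regulators Rgs7 and Rgs11, which shut Go off, differed by -1.85 ± 0.27 and -2.17 ± 0.36, and Nyx (nyctalopin), a leucine-rich repeat protein, by -1.17 ± 0.25. The Nyx call held under 9 of 18 alternatives and was lost without any 1 of the Pcp2 arrays, Chrnb4 replicate 1 or b2_1st replicate 2 or 3 (-1.37 to -1.0). Grm6 itself missed the fold. It had 10.9, 8.96 and 9.03 in rods and 7.97, 10.5 and 10.5 in cones, against 16.2, 15.2 and 19.4 in rod bipolar cells, with no overlap and a difference of -0.81 ± 0.17 (limma adjusted p = 0.036). Its mean was 121 in the mGluR6 line of batch 2, whose Cre transgene is named after the receptor that this gene codes.

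Of 12 measured rod bipolar markers, 10 could be tested and all 10 were lower in photoreceptors, with a median of -3.31; Strip2 and Lrrtm4 were too dim. Prkca and Pcp2 are the markers named above, and the list was drawn up for this cell type. Pcp2 drives the reporter of these cells, so its call follows from the sort. Across all probe sets tested, 1.97% were lower and 1.01% higher. Car8, a carbonic anhydrase relative, had 10.7, 9.43 and 13.6 in rods and 14, 24.5 and 30.9 in cones, against 350, 517 and 548, a difference of -4.89 ± 0.35. Cabp5, a calcium sensor, was at 11.4 to 17.3 in rods and 19.5 to 57.4 in cones, against 444 to 487. Sebox, a homeobox gene, differed by -3.47 ± 0.31, Vstm2b by -3.16 ± 0.29 and the membrane glycoprotein Tpbg by -2.79 ± 0.17. Gabrr1 and Gabrr2, subunits of the GABA-C receptor, were the only called genes among 3 tested inhibitory receptor genes, at -3.72 ± 0.34 and -4.15 ± 0.43. The third, Glrb, the glycine receptor β subunit, differed by -0.33 ± 0.33, and the other 12 measured genes were too dim to test in these sets. Bipolar transcription factors were lower for 5 of 14 genes and higher for 0. Isl1, which ON bipolar cells need, had 30.5, 26.8 and 12 in rods and 31, 19 and 59.9 in cones, against 571, 634 and 693. Neurod4, a bHLH factor, differed by -3.03 ± 0.17 and Bhlhe23 by -1.66 ± 0.17, and the fifth, beside Sebox, was St18 (-1.19 ± 0.25). St18 was called under 9 of 18 alternatives and lost without any 1 of the b2_1st arrays, Pcp2 replicate 2 or 3 or Chrnb4 replicate 2 or 3 (-1.24 to -1.04).

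**Figure D3:**
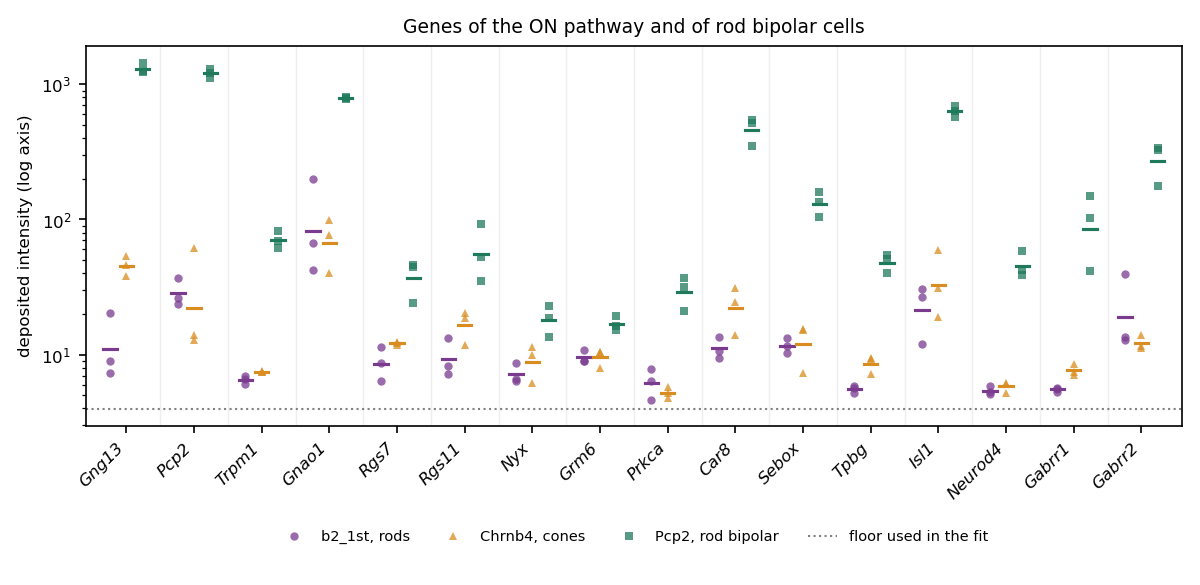
Deposited intensity on a log axis for 16 genes of the ON pathway and of rod bipolar cells. Points are single arrays of b2_1st (rods), Chrnb4 (cones) and Pcp2 (rod bipolar), bars are geometric means after the floor; Grm6 is the dimmest of the bipolar levels, at 15.2 to 19.4.

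Levels of these genes in the other bipolar lines are geometric set means, given with no test. Prkca averaged 35.2 in mGluR6, the ON bipolar line, but 4.5 in Kcng4 and 4.79 in Lhx4, lines labelled only as bipolar. Sebox averaged 126 in mGluR6, 8.87 in Kcng4 and 19 in Lhx4, and Car8 573, 18.2 and 107. Gng13 averaged 1057 in mGluR6, 991 in Kcng4 and 1227 in Lhx4. Cabp5 averaged 490 in mGluR6, 987 in Kcng4 and 1153 in Lhx4. Scgn, secretagogin, a calcium-binding marker of cone bipolar cells, averaged 412, 341 and 728 in the same lines. It was also at 165, 179 and 127 on the Pcp2 arrays, against 5.2 to 13.4 in rods and 6.72 to 20.2 in cones (-4.09 ± 0.42). Igfn1 was the only other cone bipolar marker called among 11 tested, at -1.12 ± 0.19 (-1.0, not called, without Pcp2 replicate 2). The part of cone bipolar cells among the sorted Pcp2 cells was not tested.

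Of 12 tested calcium-binding genes, 4 were lower (Pcp4, Scgn, Cabp1 and Cabp5). Among all probe sets tested, 1.97% were lower and 1.01% higher. Counts of 0 or 1 in the lists of this paragraph are near that background. Pcp4, a calmodulin-binding peptide, had 34.8, 121 and 32.3 in rods and 243, 166 and 210 in cones, against 2083, 2152 and 2236. Of 24 tested potassium channel genes, 2 were lower: Kcnma1, the large-conductance calcium-activated channel, at -2.26 ± 0.34, and Kcnn2, a small-conductance one, at -1.62 ± 0.24. Of 15 tested glutamate receptor genes 0 were called, and of 14 genes of conventional vesicle release only Nsf, the fusion ATPase, at -1.61 ± 0.24. By limma, 0 were called among 8 tested genes of the photoreceptor membrane and 7 of the nuclear envelope as well; over all probe sets, 1587 had an unadjusted p under 0.05. In glycolysis, 1 of 20 genes was called: Ldha, lactate dehydrogenase A, with 1026, 1271 and 1104 in rods and 677, 768 and 709 in cones, against 327, 385 and 427. Pkm differed by 0.11 ± 0.43, and Hk2 was too dim to test. Other strongly lower genes that the naming rule took were Qpct, which forms pyroglutamate on peptides (-5.4 ± 0.45), Tceal6 (-5.04 ± 0.5), the galactosyltransferase B3galt2 (-4.75 ± 0.38) and the glutathione transferase Gstm5 (-4.23 ± 0.64).

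**Figure D4:**
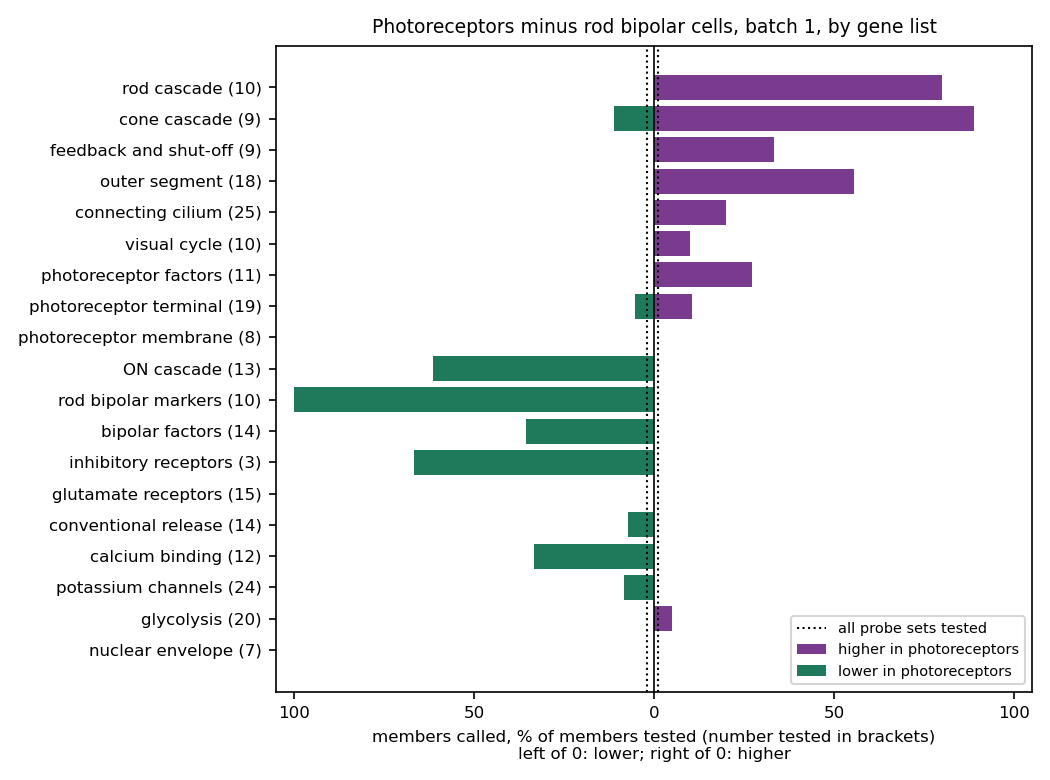
Share of tested members called in photoreceptors minus rod bipolar cells for 19 gene lists, lower to the left and higher to the right of 0, in % of the members tested. Dotted lines mark the share over all probe sets, 1.01% higher and 1.97% lower; all 10 tested rod bipolar markers were lower and 8 of 10 rod cascade genes higher.

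Of 11 tested transcription factors of photoreceptors, 3 were higher: Rax, Neurod1 and Rxrg. The share higher over all probe sets tested was 1.01%. Rax, a homeodomain factor of the eye field, had 195, 36.1 and 189 in rods and 58.9, 103 and 312 in cones, against 8.18, 0.217 and 0.0896. Neurod1, a bHLH factor that photoreceptors need to survive, was higher by 1.12 ± 0.2 and stood at 443 to 728 in rod bipolar cells. Its call was lost without Pcp2 replicate 2 or 3 (1.1 and 0.95), that of Rxrg likewise (1.53 and 1.58), and that of Rax without Pcp2 replicate 3 (4.35). Rxrg, a cone nuclear receptor, was at 44.9 to 96.8 in cones and at 4.59 to 5.97 in rods, against 6.37 to 6.83. Nrl, the factor that sets rod fate, had 124, 121 and 78 in rods and 4.81, 25.3 and 14.6 in cones, against 17.5, 25.8 and 28.3, and was not called against rod bipolar cells in either line. Otx2 was not called either, with 75, 58.1 and 193 in rods and 87.5, 39.3 and 93.3 in cones, against 216, 147 and 134 (-1.01 ± 0.48).

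CRX and OTX2 bind the core TAATCC, so the promoters of the called genes were searched for it on both strands (GGATTA is its reverse complement). Windows of 300 bases, 250 before and 50 after the start, came from the RefSeq table (GRCm38.p6), the first listed window of a gene being used. Of 119 genes called higher, 94 had a window and 16 of these (17%) held the core. For genes called lower the count was 14 of 194 (7.22%), for all tested genes with a window 562 of 9327 (6.03%), and 1935 of all 27025 windows (7.16%) held it. As a second motif, the homeodomain palindrome TAATTA stood in 2.13% of the higher and 1.55% of the lower genes, against 3.06% of those tested. These are descriptions of letters, not of binding. Among the genes taken by the naming rule, the core stood in 4 of 17 higher and 3 of 9 lower genes with a window. Promoters of 4 photoreceptor genes, picked because they hold the core, are shown beside those of Cabp5 and Isl1, bipolar genes that hold it as well. Of these, Crx was not called. Capitals mark the core on either strand, and each is written 5′ to 3′ on the strand of its gene.
Guca1a (chr17:47400557-47400856, minus strand): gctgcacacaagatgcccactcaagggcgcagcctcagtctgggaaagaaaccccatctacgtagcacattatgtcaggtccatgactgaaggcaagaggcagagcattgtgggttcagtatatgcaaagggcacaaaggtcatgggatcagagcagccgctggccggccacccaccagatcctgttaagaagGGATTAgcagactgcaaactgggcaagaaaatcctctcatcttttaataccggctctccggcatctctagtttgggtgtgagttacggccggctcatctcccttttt
Sag (chr1:87803430-87803729, plus strand): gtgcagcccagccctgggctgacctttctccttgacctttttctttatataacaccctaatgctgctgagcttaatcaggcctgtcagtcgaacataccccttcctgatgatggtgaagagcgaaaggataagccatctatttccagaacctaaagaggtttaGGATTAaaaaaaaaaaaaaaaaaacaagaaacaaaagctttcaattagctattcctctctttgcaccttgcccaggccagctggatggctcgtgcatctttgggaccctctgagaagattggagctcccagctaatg
Aipl1 (chr11:72037460-72037759, minus strand): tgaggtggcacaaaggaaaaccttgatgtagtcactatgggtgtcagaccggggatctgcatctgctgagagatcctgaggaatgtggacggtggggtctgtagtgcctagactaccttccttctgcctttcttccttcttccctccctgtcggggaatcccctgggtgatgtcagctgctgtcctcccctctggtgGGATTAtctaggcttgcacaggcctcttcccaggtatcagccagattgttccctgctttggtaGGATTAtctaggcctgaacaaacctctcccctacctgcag
Crx (chr7:15879906-15880205, minus strand): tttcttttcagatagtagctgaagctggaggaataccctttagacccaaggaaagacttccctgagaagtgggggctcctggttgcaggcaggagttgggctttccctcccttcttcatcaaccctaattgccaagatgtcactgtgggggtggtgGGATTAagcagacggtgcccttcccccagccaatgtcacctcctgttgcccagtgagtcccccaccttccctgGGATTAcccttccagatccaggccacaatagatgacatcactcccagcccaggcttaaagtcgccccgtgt
Cabp5 (chr7:13397905-13398204, plus strand): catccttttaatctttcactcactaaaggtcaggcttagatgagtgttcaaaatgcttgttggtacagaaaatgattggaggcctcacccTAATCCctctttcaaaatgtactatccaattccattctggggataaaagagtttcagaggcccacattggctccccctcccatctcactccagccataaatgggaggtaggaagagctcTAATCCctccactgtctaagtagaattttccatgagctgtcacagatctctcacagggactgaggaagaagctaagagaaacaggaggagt
Isl1 (chr13:116309639-116309938, minus strand): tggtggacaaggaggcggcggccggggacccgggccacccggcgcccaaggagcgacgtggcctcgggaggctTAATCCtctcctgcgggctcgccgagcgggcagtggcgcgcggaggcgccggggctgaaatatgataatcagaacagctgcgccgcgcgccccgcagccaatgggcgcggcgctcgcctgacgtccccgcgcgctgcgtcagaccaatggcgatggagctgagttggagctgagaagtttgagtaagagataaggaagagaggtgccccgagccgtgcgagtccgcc

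Aipl1, Crx and Cabp5 hold the core at 2 places of the window each. Guca1a, Sag and Isl1 hold it once. The windows of Pde6b, Prkca and Pdc hold none, which says only that these letters are absent there.

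The rods of batch 2 were compared with ON bipolar cells to see how far the calls recur in other arrays. That comparison called far more, with 790 of 12363 tested probe sets higher (6.39%) and 1364 lower (11%). Of the 119 probe sets called higher in batch 1, 112 were tested in batch 2, 103 had the same sign (92%) and 79 were called higher (70.5%). Of the 232 called lower, 231 were tested, 227 had the same sign (98.3%) and 188 were called lower (81.4%). The share with the same sign over all probe sets tested in both batches was not computed, so the same-sign shares have no background. The median of the lower ones was -2.52 in batch 2 and -2.19 in batch 1. Guca1a was higher by at least 10.09, Mab21l1 by at least 8.67 and Rcvrn by at least 8.18 in batch 2. The lower genes Gng13 and Pcp2 differed by -5.49 and -4.83 there. Opposite calls were made for 4 higher and 2 lower probe sets. Gnat2 (-4.27, a bound) and Gngt2 (-1.86, a bound) were among them, in a batch with no cones. Grm6 was called in batch 2 at -3.8 and Crx at 1.58. The Cre line of these ON bipolar cells is named after mGluR6, the product of Grm6, so the Grm6 call is no independent check. Ldha, called in batch 1, differed by 0.54 in batch 2 and was not called. The summed intensity of the 12 microglial markers was 107 to 158 on the rod arrays of batch 2, against 301 to 1336 on the mGluR6 arrays, and 6 of 11 tested microglial markers were lower in rods. The summed intensity of the 15 Müller cell markers was 497 to 3196 on the rod arrays of batch 2, against 481 to 681 on the mGluR6 arrays. Of 13 tested Müller cell markers 0 were called. The part of microglial or Müller cell RNA in the larger number of calls was not tested.

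**Figure D5:**
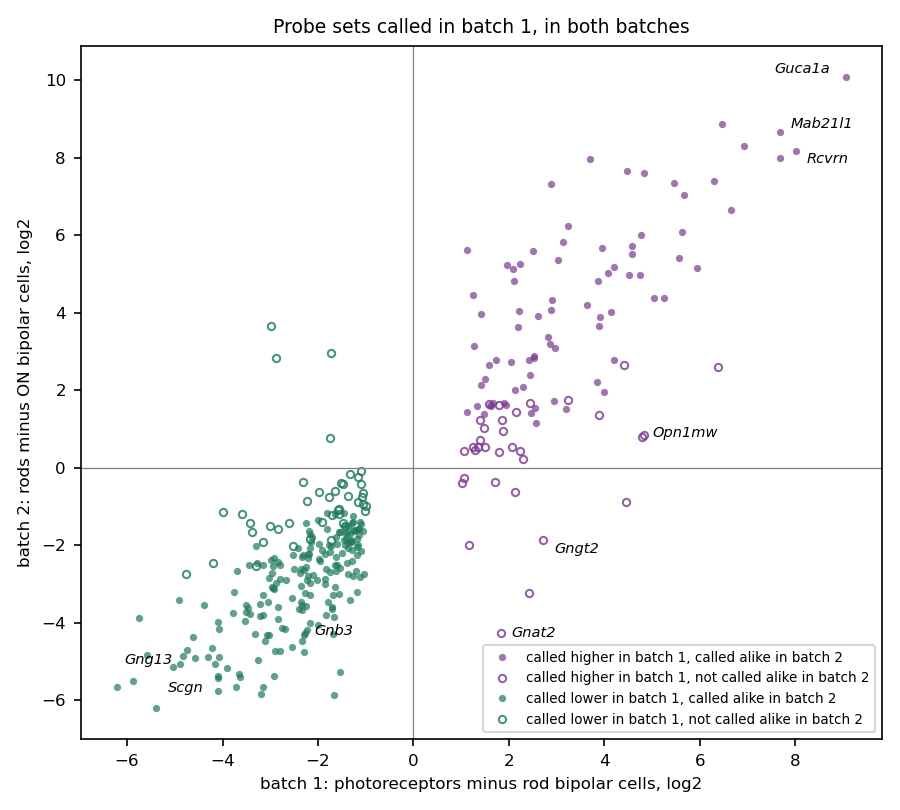
Log2 differences of the probe sets called in batch 1 (x axis, photoreceptors minus rod bipolar cells) and tested in batch 2 (y axis, rods minus ON bipolar cells). Filled points were called in the same direction in batch 2 and open points were not; 227 of 231 lower and 103 of 112 higher probe sets share the sign.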

How the data were processed

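Affymetrix Mouse Gene 1.0 ST arrays, a whole-transcript design, were deposited by the authors as linear intensities, with 1 value for each probe set. Per the submitters' processing notes, RMA, the oligo package, R 2.11.1 and the build mm9 were used; their settings are not given in the sources used here. The 78 columns share the same sorted values (largest difference 0), and run from 0.0238 to 5770, with a median of 9.01. The plan assumed log2 values, but the scale is linear, so log2 was taken. On 70 arrays the lowest values stand in a run of 10 or more in identifier order. The highest end of such a run on any array, 3.99, was used as a floor for all (10.5% of values).

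Of 22347 probe sets, 19446 had 1 gene symbol, 735 several and 2166 none in the platform table. A gene with several is given by the one of highest mean over the 9 arrays. Probe sets with a mean above 9.01 in at least 1 of the 3 sets were tested with limma 3.58.1 (R 4.3.3), with 1 mean per set, a trend in the prior variance and Benjamini-Hochberg adjustment over all tested. P-values measure the spread among the arrays of a set. The number of arrays limits the precision. Named genes were the 12 largest non-overlapping calls per direction with no array at the floor, the 8 brightest with the whole lower group at the floor, and members of 28 gene lists. Members and lists were chosen with earlier results of these data known. On simulated data with 11774 probe sets, 50% of 50 changes of 1.5 log2 units were recovered. For 50 changes of 2 units it was 72% and for 50 of 3 units 96%, with 4 false calls. The simulated noise was normal, with no floor, and each change was the same in rods and cones. These rates therefore do not cover genes at the floor or genes that differ between rods and cones. Alternatives covered the floor, filter, normalization, probe sets, arrays in the fit, replicate block and each array left out; the floor at the median was chosen after seeing the data. Replicate numbers did not pair arrays across sets (residual r of -0.03 to 0.0514 over 9 pairs, mean 0.0019), so no block was used. Figures were drawn with matplotlib 3.10.9.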

Additional observations from a re-analysis of the deposited data

Results flagged for a closer look

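Rods and cones were called in opposite directions against the same Pcp2 arrays for 6 genes, and the test of the difference between the lines passed for each (limma, rods minus cones on the log2 scale). Mt1, a metallothionein, differed by at least 9.28 ± 0.27. It had 2394, 2394 and 2655 in rods and 0.741, 0.355 and 0.741 in cones, against 634, 806 and 755 in rod bipolar cells. Its mean was 3365 in the other cone line, d4. Gnat2, cone transducin α, differed by -9.15 ± 0.4, a bound. Rnf113a2 differed by at least 6.88 ± 0.38, with 455 to 698 in rods and 1.29 to 7.06 in cones, against 146 to 203 in rod bipolar cells. Mpp6, a membrane scaffold, differed by -4.09 ± 0.38 and Elovl6, a fatty acid elongase, by -3.76 ± 0.34. Anapc5, a subunit of the anaphase-promoting complex, differed by at least 3.16 ± 0.33.

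Lgals1, galectin-1, was called lower in rods in batch 1 (-2.27) and higher in rods in batch 2 (at least 3.65). The difference of these differences was -5.92 ± 0.46, a bound (limma adjusted p = 4.4e-05). In batch 2 it had 381, 168 and 125 in the b2_2nd arrays and 10.8, 11.5 and 16.2 in the b2_single arrays, against 2.33, 2.08 and 1.62 in ON bipolar cells. In batch 1 it had 12.1, 9.35 and 11.4 in rods, against 52.1, 46 and 59.8 in rod bipolar cells. Groups of 3 arrays were not examined for single outlying arrays.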

How the results depend on the processing

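The 351 calls between photoreceptors and rod bipolar cells became 720 in the fit on 24 arrays of batch 1 and 774 in that on all 78 arrays. Of the genes named, Prph2 and Gnb1 lost their call in the fit on 24 arrays. Prph2, Rom1, Neurod1, Ldha, Gnat2, Ier3 and Pcdh15 lost theirs in that on all 78. The same fits gave 1184 and 1189 for rods against rod bipolar cells (496), 726 and 759 for cones against rod bipolar cells (269), and 1313 and 1325 for rods against cones (378). With the replicate block, counts were 278, 365, 207 and 242 for the same comparisons. The labels do not tie equal numbers to a shared animal. Leaving out 1 array gave 206 to 393, 284 to 391, 150 to 307 and 251 to 411, and 1217 to 2246 for batch 2 (2154). The first count was 232 without Pcp2 replicate 2 and 206 without Pcp2 replicate 3. Rods against rod bipolar cells gave 310, 284 and 287 without Pcp2 replicates 1, 2 and 3, cones against rod bipolar cells 168 and 150 without replicates 2 and 3. Rods against cones gave 251 without b2_1st replicate 2, and batch 2 gave 1217 and 1426 without mGluR6 replicates 1 and 2. These fits hold more or fewer arrays; no other cause was tested. Gnat2 turned to -1.58 without the floor. All other floor, filter, normalization and probe set alternatives kept these counts within 1.5 times. Differences near the floor are bounds, and 3 arrays a set limit what smaller differences can be called.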

Other observations

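Some strongly different genes lie outside the lists and the naming rule and were chosen after their values were seen. They are single genes, with no count or test of a group behind them. Fabp12, a fatty acid-binding protein, had 111, 134 and 202 in rods and 406, 391 and 343 in cones, against 7.77, 1.12 and 2.99 in rod bipolar cells, at least 5.55 ± 0.35 higher. Fabp7, the brain form, had 5.6, 7.03 and 5.65 in rods and 654, 535 and 526 in cones, against 7.86, 1.85 and 6.77. It was called in cones (at least 6.58) and not in rods (0.02). Fabp4, the adipocyte form, was at the floor in rod bipolar cells and at 19.8 to 108 in rods and 128 to 183 in cones. Ppargc1a, a coactivator of mitochondrial genes, was higher by at least 4.41 ± 0.62. Nxnl1, the gene of rod-derived cone viability factor, had 716, 650 and 776 in rods and 69.7, 149 and 48.2 in cones, against 36.9, 0.0972 and 0.0479 in rod bipolar cells.

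On the bipolar side, Mt2, a metallothionein, had 29.3, 19.3 and 45.8 in rods and 0.753, 35.2 and 4.43 in cones, against 1061, 1393 and 1104 in rod bipolar cells, and its difference of -6.21 ± 0.68 is a bound. Retn, the hormone resistin, had 23.2, 21.7 and 13.2 in rods and 28, 3.61 and 49.8 in cones, against 1021, 922 and 1031. Tgfb2, a growth factor, had 5.43 to 8.48 in rods and 3.95 to 7.99 in cones, against 140 to 260. The potassium channel gene Kcna5 differed by -3.91 ± 0.31, and Foxn3, a forkhead factor, by -3.5 ± 0.29, with 54.3 to 67.5 in rods and 301 to 743 in cones, against 1841 to 2152 in rod bipolar cells. The batch 2 differences of Mt2, Retn and Tgfb2 were -5.66, -3.87 and -3.41, in other arrays and another bipolar line.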
